A study of Mus musculus with 12 samples.

Results

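Genes of the Toll-like receptor family and its RP105 branch were followed across resting B cells and naive T cells of the mouse spleen. The 10 are Tlr1, Tlr2, Tlr4 and Tlr6, whose receptors sit at the cell surface, Tlr3, Tlr7 and Tlr9, whose receptors sit in endosomes, Unc93b1, which carries the endosomal receptors to their compartment, and Cd180 and Ly86, which encode the RP105 complex. They were chosen by gene symbol, with earlier results of these data known. Each symbol had 1 row among the 41128 genes of the deposited table. All 10 passed the filter for testing, which asked for 3 or more libraries with an adjusted TPM no lower than 1 and left 12520 genes in all. TPM is a length-corrected share of transcripts, and adjusted TPM is a TPM that the authors adjusted in a way not given in the sources used here. Levels of different genes are set side by side on this length-corrected scale.

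Toll-like receptors recognise molecules that microbes carry and pass the signal through adaptor proteins, chiefly MyD88, to NF-kB and the interferon regulatory factors. TLR2 pairs with TLR1 or TLR6 to bind bacterial lipopeptides, TLR4 with its partner MD-2 binds lipopolysaccharide, TLR3 binds double-stranded RNA, TLR7 single-stranded RNA and TLR9 DNA with unmethylated CpG. RP105, the product of Cd180, resembles the outer portion of TLR4, lacks the inner signalling domain, is held at the surface by MD-1, the product of Ly86, and is known for its abundance on B cells, which proliferate when it is crosslinked.

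The study profiled splenic RNA of mice of the C57BL/6J strain at 6 to 8 weeks of age, with no treatment or genetic alteration named in the labels. Its 12 libraries fall into 4 groups of 3: resting CD43- B cells of females, the same cells of males, naive CD4+CD62L+ T cells of females and the same cells of males. The T cells were depleted of other cells with beads, among them cells with B220 or CD11b, and were then sorted as CD62L high, CD44 low and CD25-, and RNA came from 1000000 cells. The series describes its material as pools of mice, so the p-values measure the spread between pools, which may include technical spread.

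The B cell and T cell marker genes went with the labels. The summed adjusted TPM of Cd79a, Cd79b, Ms4a1 and Pax5, which mark B cells, was 2220 to 2643 in the B cell libraries and 0.896 to 4.91 in the T cell libraries, and that of 5 T cell markers was 9.76 to 14.1 and 1017 to 1194. Most of the T marker sum in the B cell libraries was Lck, at 8.94 to 13.4, while Cd3d, Cd3e and Cd4 stayed at or below 0.263. Of the marginal zone B cell markers, Cr2, S1pr3 and Cd1d1 were higher in B cells, whereas Dtx1 was lower, at 48.2 to 67.6 in B and 64.3 to 84.7 in T cell libraries (log2 difference -0.30, adjusted p 0.0059 in limma). The follicular markers Fcer2a and Icosl were at 136 to 196 and 87.5 to 112 in B cell libraries, and at most 0.508 and 2.14 in T cell libraries. The 5 monocyte or macrophage markers summed to 13.2 to 17.2 in B cell and 2.64 to 6.55 in T cell libraries, those of conventional dendritic cells to at most 10.3, those of neutrophils to at most 2.57 and those of natural killer cells to at most 1.38. The 3 plasma cell markers summed to 49.7 to 64.1 in B and 26.5 to 32.8 in T cell libraries. Of these, Sdc1 and Xbp1 were higher in B cells (log2 differences 2.83 and 0.87) and Prdm1 was lower (-0.67). The 4 plasmacytoid dendritic cell markers summed to 441 to 553 in B and 26.8 to 40.6 in T cell libraries. Most of that was Ly6d in B cells (426 to 533) and Bst2 in T cells (26.2 to 40.4), while Siglech was at most 0.00180 in any library.

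Every one of the 10 genes was higher in B cells than in T cells. All 10 passed an adjusted p of 0.05 in limma with Benjamini-Hochberg adjustment over the 12520 genes. The background of that count is high, since 73% of all tested genes passed, and 31.4% of all tested genes were higher in B cells and 41.6% lower. In 9 of the 10, with Tlr6 as the exception, the lowest B cell library was above the highest T cell library. The same was so for 24.2% of all tested genes. Tlr3, Tlr4, Tlr9, Cd180 and Ly86 were below 1 in every T cell library and passed the filter only through B cells. For these genes the filter itself favoured a higher B cell level, so their calls are no separate evidence of the direction. The median log2 difference of the 10 genes, B minus T cells on log2(adjusted TPM + 1), was 3.27, beside a median of -0.09 over all tested genes. When each library was rescaled to the same total, the latter median became 0.26 and the share of passing genes that were higher in B cells went from 43% to 71.6%, and with median-ratio scaling that share was 50.3%. All 10 genes stayed higher in B cells and past the threshold under both scalings. In bulk RNA, fewer cells with a transcript and less of it in each cell cannot be told apart.

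**Figure D1:**
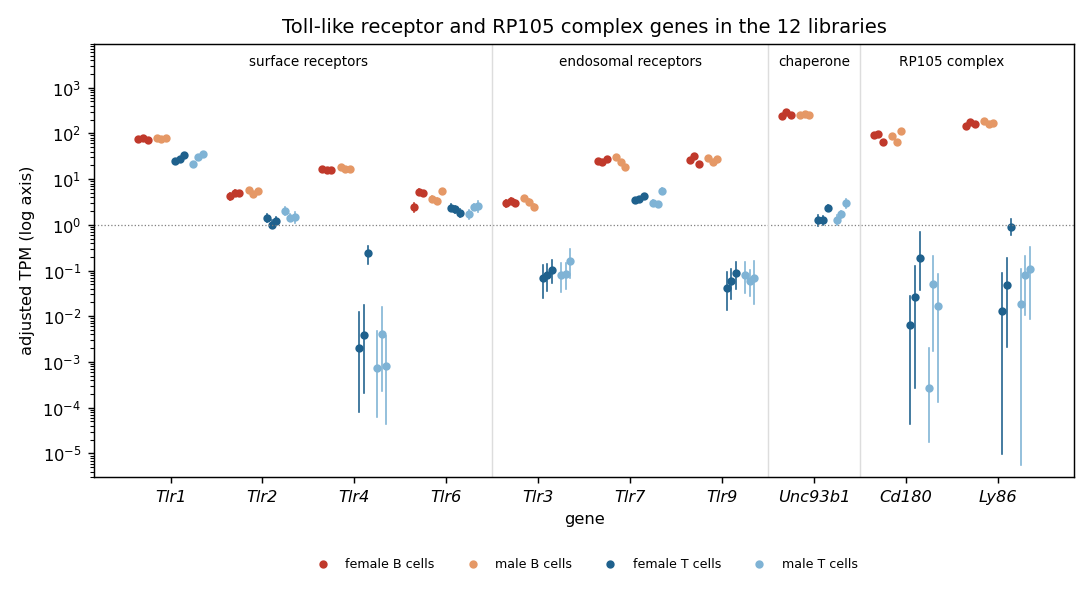
Adjusted TPM (log axis) of the 10 genes in each of the 12 libraries. Points are libraries, vertical lines run from the lower to the upper bound deposited with each value, and the dotted line marks an adjusted TPM of 1. B cell libraries lie above T cell libraries for every gene except Tlr6, where they overlap, and the bounds are wide wherever a T cell value is far below 1.

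The plot of levels by library shows an order that differed between the cell types. In B cells Unc93b1 had the highest mean level, at 259 ± 17.1 (SD, n = 6), above Ly86 at 168 ± 16.4 in 6 of 6 libraries. Cd180 followed at 85.7 ± 17.5 and Tlr1 at 75.6 ± 2.62, and their ranges overlapped. Tlr9 at 26.6 ± 3.72 and Tlr7 at 24.9 ± 4.04 overlapped too, and Tlr4 at 16.6 ± 1.08 lay below both in every library. At the low end Tlr2 at 5.001 ± 0.544, Tlr6 at 4.22 ± 1.26 and Tlr3 at 3.15 ± 0.446 overlapped from each to the next. The 5 monocyte or macrophage markers summed to 13.2 to 17.2 in the B cell libraries. The part of other cells in these low B cell levels was not tested. In T cells Tlr1 came first at 29.1 ± 5.56, above Tlr7 at 3.79 ± 1.00 and then Tlr6 at 2.17 ± 0.340, Unc93b1 at 1.82 ± 0.718 and Tlr2 at 1.42 ± 0.315, the last 3 overlapping in sequence. The other 5 had T cell means below 0.2 with overlapping ranges.

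Cd180, on chromosome 13 (GRCm38, 102693558 to 102739629, plus strand), and Ly86, on the same chromosome (37345208 to 37419036, plus strand), were the RP105 pair. Cd180 levels were 92.1, 95.1 and 65.5 in female B cells and 85.3, 65.9 and 110 in male B cells. In T cells they were 0.00650, 0.0265 and 0.192 in females and 0.000265, 0.0504 and 0.0167 in males. All 6 B cell libraries were far above all 6 T cell libraries, and female T cell 6 was the highest of the latter. The log2 difference was 6.35 (SE 0.12, 95% interval 6.08 to 6.61, adjusted p 5.7e-14 in limma).

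Ly86 levels were 143, 181 and 162 in female B cells and 190, 163 and 170 in male B cells. The T cell libraries gave 0.0130, 0.0483 and 0.898 in females and 0.0183, 0.0813 and 0.110 in males. The groups did not overlap, and female T cell 6 again stood highest among T cells. The log2 difference of Ly86 was 7.18 (SE 0.14, 95% interval 6.88 to 7.48, adjusted p 4.6e-14 in limma), the largest of the 10 on this scale, while the ratio of the B to the T cell mean was larger for Cd180 than for Ly86 (1761 against 863). The ratio of Ly86 to Cd180 was 1.54 to 2.48 across the B cell libraries. Ly86 was 24.8 to 34.1 times the level of Ly96, the gene of MD-2, in the same libraries, and Cd180 was 4.03 to 6.73 times Tlr4. An opposite-strand gene, Mast4, overlaps Cd180, and the libraries were made strand-specific, but how the counting used strand is not given in the sources used here.

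The RefSeq sequences upstream of the 2 RP105 genes are shown because both genes encode parts of 1 complex. They come from RefSeq promoter windows of 250 bases before an annotated start (GRCm38.p6, 7 of the 10 genes matched), cut to the bases outside GENCODE M21 exons. Cd180 lies at chr13:102693308-102693557 and Ly86 at chr13:37345095-37345207, both on the plus strand.
Cd180 upstream: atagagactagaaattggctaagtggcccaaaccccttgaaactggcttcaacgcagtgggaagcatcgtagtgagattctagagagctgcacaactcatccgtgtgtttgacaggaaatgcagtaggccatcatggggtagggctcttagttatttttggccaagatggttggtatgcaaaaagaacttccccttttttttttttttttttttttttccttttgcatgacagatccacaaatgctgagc
Ly86 upstream: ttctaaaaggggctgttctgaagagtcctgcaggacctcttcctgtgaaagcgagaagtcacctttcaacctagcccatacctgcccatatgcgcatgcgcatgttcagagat
On both strands of all windows 6 motifs of lymphoid and interferon-linked factors were searched. They were the PU.1 core GAGGAAGT, the EBF1 motif (TCCC, any 2 bases, GGGA), the octamer ATTTGCAT, an ETS-IRF composite (GGAA, any 2 bases, GAAA), an interferon response element (GAAA, any 2 bases, GAAA) and the E-box CAGCTG. The ETS-IRF and interferon motifs share their second part. These letters do not occur in the windows of Cd180 or Ly86. Over 32851 windows of the same length the motifs occurred in 2.44%, 0.779%, 1.60%, 2.30%, 2.98% and 13.0%, in that order.

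Among the surface receptors, Tlr4 differed most and Tlr6 least between the cell types. Tlr4, on chromosome 4 (66827584 to 66930284, plus strand), was at 16.5, 16.0 and 15.9 in female and 18.8, 16.3 and 16.4 in male B cells. In T cells it was at 0.00199, 0.00393 and 0.239 in females and 0.000756, 0.00406 and 0.000819 in males. The B cell values lay close together and apart from T cells, of which female T cell 6 alone exceeded 0.005, with deposited bounds of 0.138 to 0.347. The log2 difference was 4.08 (SE 0.07, 95% interval 3.94 to 4.23, adjusted p 1.5e-14 in limma), and 4.14 without female T cell 6.

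Tlr1 and Tlr2, whose products form one lipopeptide receptor, kept a measurable level in T cells. Tlr1 (chromosome 5, 64924679 to 64933563, minus strand) ran from 72.2 through a median of 75.6 to 79.0 in B cells and from 21.4 through 29.1 to 36.1 in T cells. The groups did not overlap, the B cell mean was 2.60 times the T cell mean, and the log2 difference was 1.37 (SE 0.11, 95% interval 1.13 to 1.61, adjusted p 1.4e-07 in limma). Tlr2 (chromosome 3, 83836272 to 83841767, minus strand) ran from 4.21 through 4.95 to 5.76 in B cells and from 1.01 through 1.41 to 1.96 in T cells. It did not overlap either, at 3.53 times the T cell mean and a log2 difference of 1.32 (SE 0.08, 95% interval 1.14 to 1.49, adjusted p 7.3e-09 in limma). Tlr1 exceeded Tlr2 in every library, by 13.7 to 17.6 times in B cells and 10.9 to 27.5 times in T cells.

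Tlr6, the other partner of TLR2, was the 1 gene of the 10 with overlapping groups. Its levels were 2.43, 5.27 and 5.07 in female B cells, 3.67, 3.33 and 5.56 in male B cells, 2.37, 2.16 and 1.83 in female T cells, and 1.71, 2.43 and 2.54 in male T cells. Female B cell 1 lay inside the T cell range, and the other 5 B cell libraries lay above it. The log2 difference was 0.69 (SE 0.16, 95% interval 0.35 to 1.03, adjusted p 0.0016 in limma), and over 16 other settings it ran from 0.60 to 1.02 with adjusted p at most 0.0074. Without female B cell 1 it was 0.83.

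Tlr1 and Tlr6 are neighbours on the minus strand of chromosome 5, with 18467 bases and no annotated gene between them (Tlr6 spans 64952031 to 64960097). Their transcripts align over 1328 bases at 88.8% identity, and none of the 10 genes had a transcript alignment to another gene of at least 100 bases at 95% identity or more. Tlr1 was 13.9 to 30.4 times Tlr6 in B cells and 10.6 to 18.7 times in T cells, and these ranges overlapped. Their upstream stretches are printed because the 2 neighbours differ in level in both cell types. Tlr1 (chr5:64933564-64933808) holds a PU.1 core, in capitals, 23 bases before the RefSeq start, and Tlr6 (chr5:64960098-64960298) holds none of the 6 motifs, both read on the minus strand.
Tlr1 upstream: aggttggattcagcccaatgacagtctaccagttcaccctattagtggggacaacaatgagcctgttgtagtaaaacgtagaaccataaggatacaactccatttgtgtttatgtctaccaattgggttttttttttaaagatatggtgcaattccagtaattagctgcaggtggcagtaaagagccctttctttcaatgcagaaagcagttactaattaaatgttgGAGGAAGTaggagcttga
Tlr6 upstream: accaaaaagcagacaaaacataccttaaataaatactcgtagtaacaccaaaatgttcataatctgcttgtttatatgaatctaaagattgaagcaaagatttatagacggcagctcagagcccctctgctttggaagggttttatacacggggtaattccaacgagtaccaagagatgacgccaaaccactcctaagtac
Each of these genes has a second RefSeq window. That of Tlr1 held no match, and that of Tlr6 held 2 overlapping matches to the interferon response element, 116 and 110 bases before its start. The start of the printed Tlr1 window lies 797 bases from the GENCODE start of the measured transcript, and that of the other Tlr1 window 62 bases. For Tlr6 the printed window lies 1 base away and the other 881 bases. The printed window is thus the farther one for Tlr1 and the nearer one for Tlr6. A match describes letters in the window and was not tested for binding.

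The endosomal receptors were all higher in B cells, by unequal amounts. Tlr9, on chromosome 9 (106222598 to 106226883, plus strand), was at 25.9, 32.1 and 21.7 in female and 28.5, 23.7 and 28.0 in male B cells, and at 0.0414 to 0.0871 with a median of 0.0639 in T cells. The groups stood far apart, and no T cell library stood out from the rest. The log2 difference was 4.69 (SE 0.09, 95% interval 4.50 to 4.87, adjusted p 3.7e-14 in limma). The stretch before Tlr9 (chr9:106222348-106222597, plus strand) is shown because it holds the reverse complement of the octamer, in capitals, 72 bases before the start.
Tlr9 upstream: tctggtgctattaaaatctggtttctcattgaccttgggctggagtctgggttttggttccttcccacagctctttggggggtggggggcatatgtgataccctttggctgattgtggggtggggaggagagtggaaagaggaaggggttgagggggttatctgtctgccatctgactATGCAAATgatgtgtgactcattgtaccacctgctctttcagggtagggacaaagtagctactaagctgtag

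Tlr7, on the X chromosome (167304929 to 167330558, minus strand), was at 25.3, 23.5 and 27.1 in female B cells and 30.9, 23.9 and 18.8 in male B cells. In T cells it was at 3.47, 3.65 and 4.32 in females and 2.98, 2.78 and 5.50 in males. No T cell library reached a B cell library, and the mean ratio was 6.58. The log2 difference was 2.45 (SE 0.14, 95% interval 2.14 to 2.75, adjusted p 4.8e-09 in limma). Tlr9 and Tlr7 were near equal in B cells, with Tlr9 at 0.799 to 1.49 times Tlr7, whereas Tlr9 was 0.0119 to 0.0264 times Tlr7 in T cells.

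Tlr3 (chromosome 8, 45395665 to 45411080, minus strand) was the lowest of the 10 genes in B cells, running from 2.49 through 3.13 to 3.82, and was at 0.0678 through 0.0827 to 0.160 in T cells. The groups did not overlap, and the log2 difference was 1.91 (SE 0.08, 95% interval 1.74 to 2.08, adjusted p 1.3e-10 in limma). An annotated gene on the opposite strand, Gm45542, overlaps Tlr3. For genes with T cell values this far below 1 the pseudocount compresses the difference. A pseudocount of 0.1 in place of 1 gave 4.05 for Tlr3, 7.06 for Tlr4 and 7.33 for Tlr9. Cd180 and Ly86 also had T cell values below 1, and over 16 other settings their log2 differences reached 9.25 and 9.67.

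Unc93b1, on chromosome 19 (3935186 to 3949340, plus strand), was at 244, 290 and 252 in female and 246, 267 and 258 in male B cells. T cells had 1.28, 1.26 and 2.36 in females and 1.30, 1.71 and 3.00 in males. The groups stood apart in every library, with library 6 of each sex highest among T cells. The log2 difference was 6.56 (SE 0.13, 95% interval 6.27 to 6.85, adjusted p 9.2e-14 in limma). Its level was 3.89 to 5.27 times the summed level of Tlr3, Tlr7 and Tlr9 in B cells and 0.331 to 0.584 times that sum in T cells.

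The make-up of the receptor transcripts differed between the cell types. The summed adjusted TPM of the surface receptors was 97.2 to 107 in B cells and 25.1 to 40.1 in T cells, and that of the endosomal receptors was 49.3 to 63.3 and 2.92 to 5.73. Endosomal receptors made up 32.0% to 37.1% of the sum of the 7 Toll-like receptors in B cells and 7.80% to 12.5% in T cells. Tlr1 alone made up 46.4% to 50.2% in B cells and 75.8% to 81.9% in T cells. These ranges did not overlap. The sums and shares were formed after the levels were known and carry no test.

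**Figure D2:**
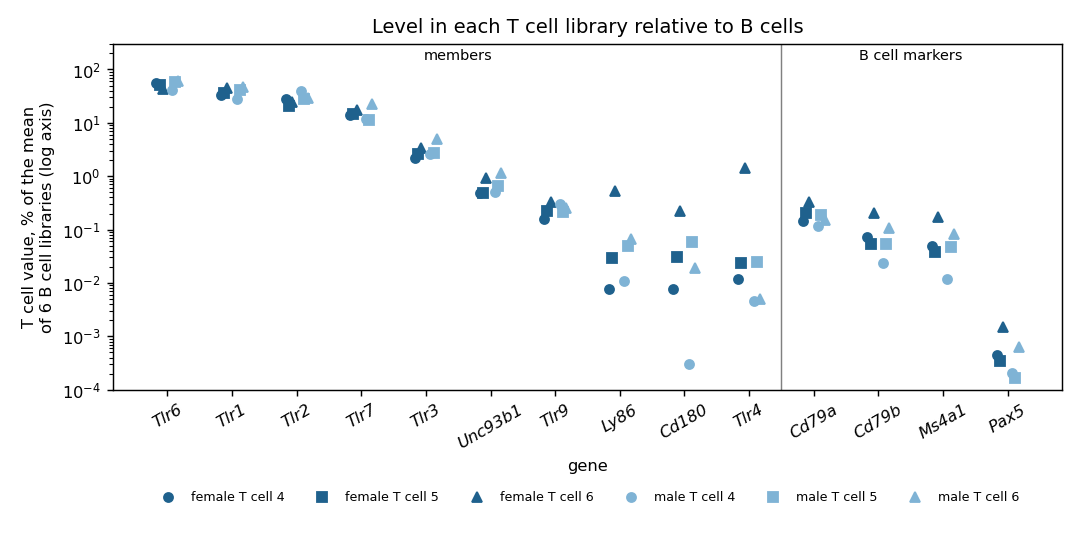
Level in each T cell library as a percentage of the mean of the 6 B cell libraries (log axis), for the 10 genes in order of their median and for 4 B cell markers. Each symbol is 1 T cell library. Tlr6, Tlr1, Tlr2 and Tlr7 lie above 10%, and female T cell 6 is highest for Ly86, Cd180, Tlr4 and all 4 markers.

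Set against the B cell mean, the T cell levels fell into a wide range, as the plot of T cell percentages shows. The median over the 6 T cell libraries was 53.7% for Tlr6 (range 40.5% to 60.3%), 38.5% for Tlr1 (28.3% to 47.7%), 28.2% for Tlr2 (20.2% to 39.3%) and 14.3% for Tlr7 (11.2% to 22.1%). It was 2.63% for Tlr3 (2.16% to 5.07%) and 0.579% for Unc93b1 (0.484% to 1.16%). The B cell markers Cd79a, Cd79b, Ms4a1 and Pax5 were at most 0.322% of their B cell means in any T cell library, below every T cell value of these 6 genes. Tlr9, at 0.155% to 0.327%, overlapped the range of Cd79a, 0.117% to 0.322%. Ly86 at 0.00773% to 0.534% and Cd180 at 0.000310% to 0.224% also overlapped the markers, and so did Tlr4 at 0.00454% to 1.44%.

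Female T cell 6 held the highest T cell values of Ly86, Cd180 and Tlr4 together with the highest summed B cell markers, 4.91 against a lowest of 0.896, and the highest summed monocyte or macrophage markers, 6.55 against a lowest of 2.64. In that library Lyz2 was at 2.52, Csf1r at 0.964 and Emr1 at 0.793, each the highest among T cells. Cd68 at 1.07 and Itgam at 1.207 were not the highest there, with 1.212 and 1.71 in male T cell 4. The part of other cells in the low T cell values of Ly86, Cd180 and Tlr4 was not tested. Without female T cell 6 the B against T log2 differences were 7.33 for Ly86, 6.38 for Cd180 and 4.14 for Tlr4. The precision of values at this level is low. The upper bound deposited with the value was 2.26 to 19860 times the lower bound for Ly86 in T cells, and 18.2 to 622 times for Cd180. It was at most 1.16 times for Tlr1 and 1.36 times for Tlr7 in T cells, and at most 1.59 times for any of the 10 genes in B cells.

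The sexes were then set against each other in B cells and in T cells. Within each cell type sex cannot be told apart from a further number in the names of the deposited values. None of the 10 genes passed the threshold in B cells, where 0.144% of all tested genes did, or in T cells, where 0.104% did, and none showed a sex difference that differed between the cell types, where 0% did. In limma the unadjusted p was under 0.05 for 0 of the 10 genes in each of these 3 comparisons, against 2.98%, 2.55% and 2.36% of all tested genes. The log2 differences of females minus males ran from -0.14 to 0.07 in B cells and from -0.23 to 0.24 in T cells, on log2(adjusted TPM + 1). In T cells Tlr3, Tlr4, Tlr9, Cd180 and Ly86 were below 1 in every library and passed the filter through B cells. The pseudocount of 1 compresses their T cell sex differences, and with them the difference between the sex effects. The T cell comparison can therefore show little about sex for these genes.

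**Figure D3:**
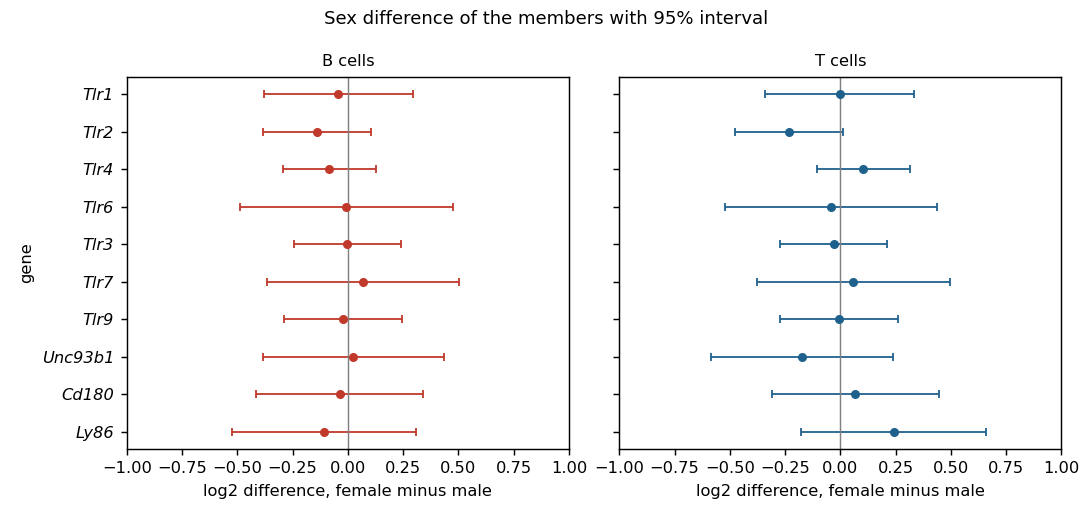
Log2 difference of females minus males for each of the 10 genes in B cells (left) and T cells (right). Points are limma estimates on log2(adjusted TPM + 1) and bars are 95% intervals. Every interval includes 0, and the intervals of Tlr6 and Tlr7 in T cells are the widest there.

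The intervals in the plot of sex differences come from the fit without the inferred pairing of T cell libraries. With the replicate block the difference of Unc93b1 in T cells was -0.17 (SE 0.08, unadjusted p 0.050 and adjusted p 1 in limma), against an SE of 0.19 without the block, and the block changed no call. For Tlr7, which is X-linked and whose extra copies are known to promote autoimmunity in mice, the difference was 0.07 in B cells (95% interval -0.37 to 0.50) and 0.06 in T cells (-0.38 to 0.50), and the difference between those differences was 0.01 (-0.61 to 0.63). Tlr4 had the narrowest intervals, -0.30 to 0.13 in B cells and -0.11 to 0.31 in T cells. Its T cell values were at most 0.239, and the fit shares its spread over the 4 groups. The narrow T cell interval of Tlr4 is therefore no sign of a precise T cell measurement. In T cells Tlr2 was the 1 gene of the 10 whose sexes did not overlap, at 1.406, 1.012 and 1.238 in females and 1.964, 1.415 and 1.458 in males, while 8.49% of all tested genes showed no overlap. The gap from 1.406 to 1.415 was narrower than the deposited bounds of those values, 1.139 to 1.742 and 1.197 to 1.684. Its log2 difference was -0.23 (95% interval -0.48 to 0.01, adjusted p 1 and unadjusted p 0.06 in limma). In B cells none of the 10 showed such a separation, against 7.2% of all tested genes.

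The wider pathway was read from 59 further genes in 8 lists. Of these, 51 were tested for B against T cells, 25 were higher in B cells, 14 were lower and 12 did not pass. The median log2 difference of the 51 was 0.15. Beside these counts and those of each list below, 31.4% of all tested genes were higher in B cells and 41.6% lower. The 25 were 64.1% of the 39 that passed, beside 73% of all tested genes passing and 43% of those being higher in B cells. After rescaling to the same total, when Tlr11 also passed the filter and 52 genes were tested, the split was 30 of 39, or 76.9%, beside 71.6% over all genes. With median-ratio scaling it was 30 of 43, or 69.8%, beside 50.3%. The adjusted p of Btk in limma was 4.8e-17 in the main fit and 2.3e-259 after rescaling to the same total. Calls after rescaling to the same total are therefore not on the same footing as those of the main fit. The cause of this was not tested.

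**Figure D4:**
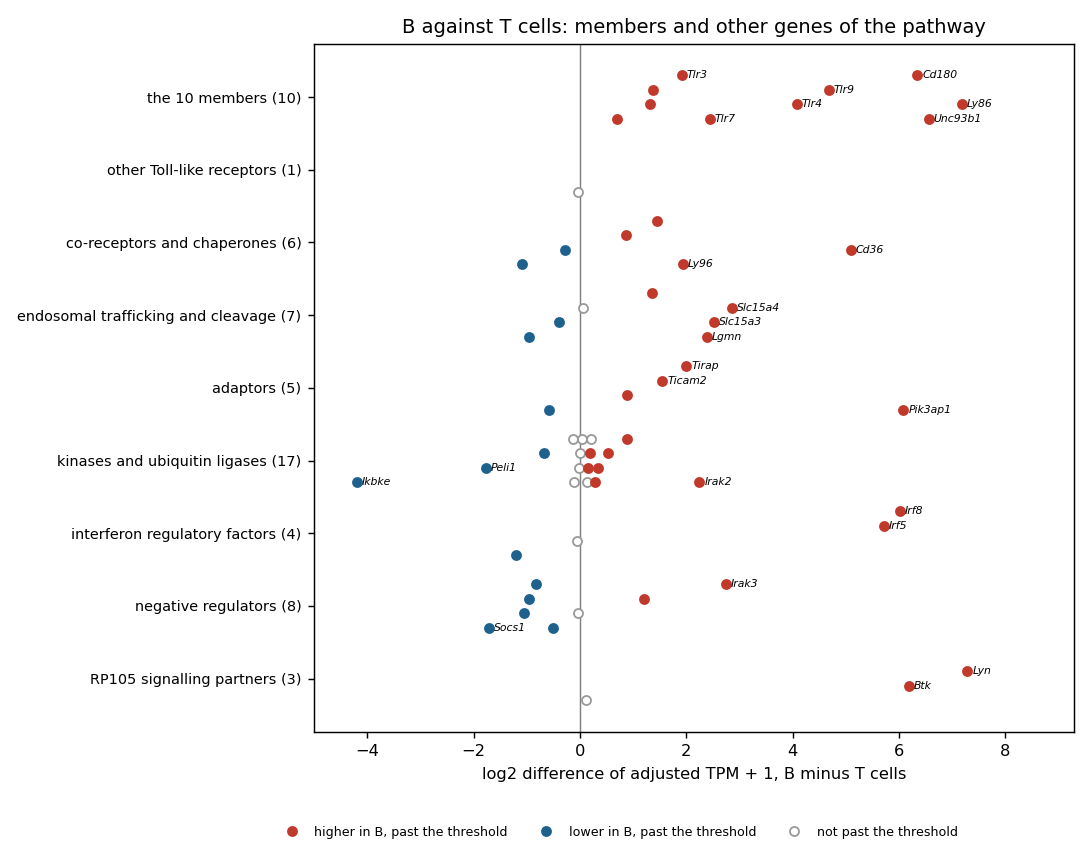
Log2 difference of B minus T cells, on log2(adjusted TPM + 1), for the 10 genes and for each tested gene of 8 pathway lists. Each point is a gene, filled where its limma adjusted p was under 0.05, and the number of tested genes stands behind each list name. The 10 genes all lie to the right of 0, while every other list except the RP105 signalling partners holds at least 1 gene to the left of 0. The 10 genes and the lists were chosen with earlier results of these data known, so this contrast is descriptive.

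The other Toll-like receptors were low in both cell types. Tlr12, a sensor of the parasite protein profilin, was the 1 tested gene of 5, at 2.06 to 2.76 in B cells and 1.94 to 2.86 in T cells, with a log2 difference of -0.03 (adjusted p 0.73 in limma). Tlr11, its partner, was at 0.611 to 1.12 in B cells with a T cell maximum of 0.0127, and Tlr13, a sensor of bacterial ribosomal RNA, was at 0.411 to 0.604 with a T cell maximum of 0.0505. Both were under the filter and had no overlap between the cell types. Tlr5, the flagellin receptor, and Tlr8 stayed at or below 0.0179 in every library.

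Of 7 co-receptors and chaperones, 6 were tested, with 4 higher in B cells and 2 lower. The scavenger receptor Cd36, a lipid-binding co-receptor of TLR2, was at 27.0 to 40.4 in B cells, and its highest T cell value was 0.243 (log2 difference 5.09). Ly96, the gene of MD-2, was at 4.54 to 6.69 and 0.430 to 1.08 (1.93), and the folding factors Cnpy3 and Hsp90b1, which Toll-like receptors need to mature, differed by 1.45 and 0.86. Lbp, which hands lipopolysaccharide to CD14, was lower in B cells by a log2 difference of -1.09, from 0.498 to 1.60 in T cells against at most 0.000216 in B cells. Cnpy4 had a log2 difference of -0.28, which turned to 0.07 when libraries were rescaled to the same total. Cd14, the lipopolysaccharide co-receptor, was under the filter, at 0.0912 or less in every B cell library.

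The 7 genes of endosomal traffic and receptor cleavage split into 4 higher, 2 lower and 1 not past the threshold. Slc15a4 and Slc15a3, transporters of histidine and small peptides in the endolysosome, had log2 differences of 2.87 and 2.52. The proteases Lgmn and Ctss were higher in B cells too, by 2.39 and 1.35. The proteases Ctsl and Ctsb went the other way, with -0.96 and -0.39, and Ctsb no longer passed after rescaling to the same total (-0.02, adjusted p 0.93 in limma). Ap3b1, of the AP-3 sorting complex, differed by 0.06 without passing, and passed with median-ratio scaling (0.15, adjusted p 0.016) and after rescaling to the same total (0.43, adjusted p 0.045).

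Of 6 adaptors 5 were tested, with 4 higher in B cells. Pik3ap1, the adaptor BCAP that links receptors to PI3-kinase, was at 66.9 to 79.4 in B cells, and its highest T cell value was 0.288 (log2 difference 6.08). Tirap, which brings MyD88 to TLR2 and TLR4, Ticam2, which serves TLR4, and Ticam1, the adaptor TRIF of TLR3 and TLR4, differed by 2.00, 1.55 and 0.88. Myd88 itself was at 11.0 to 13.1 in B cells and 16.8 to 19.4 in T cells, without overlap, with a log2 difference of -0.59 (adjusted p 1.6e-06 in limma). After rescaling to the same total it was -0.24 and did not pass (adjusted p 0.30). Sarm1 was under the filter.

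Of 17 tested kinases and ubiquitin ligases 7 were higher in B cells, 3 were lower and 7 did not pass. The kinase Irak2 (log2 difference 2.25) and the ligase Traf3 (0.89) led the first group. Ikbke, the kinase IKK-epsilon that can activate IRF3, was at 3.28 to 5.59 in B cells and 92.1 to 114 in T cells (-4.19). The ligase Peli1 differed by -1.78. After rescaling to the same total Tab1, among the lower genes, no longer passed (-0.36, adjusted p 0.10 in limma). Tab2 and Tab3 did pass then, as higher in B cells (0.50 and 0.54, adjusted p 0.022 and 0.0088 in limma). Of 4 interferon regulatory factors, Irf8, a factor of B cell and myeloid development, and Irf5, which acts downstream of TLR7 and TLR9, were higher in B cells by 6.01 and 5.73. Irf8 was at 142 to 185 in B cells and 1.31 to 2.18 in T cells. Irf7, a driver of interferon alpha genes, was lower in B cells by a log2 difference of -1.21, and Irf3 differed by -0.05 (adjusted p 0.42 in limma).

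Among 8 tested negative regulators 2 were higher in B cells, 5 were lower and 1 did not pass. Of the 5, Cyld did not pass after rescaling to the same total (-0.13, adjusted p 0.59 in limma). Dusp1 did not pass with median-ratio scaling (-0.87, adjusted p 0.054 in limma). Irak3, an inhibitory kinase of the IRAK family, and Nrros, which binds Toll-like receptors in the endoplasmic reticulum, had log2 differences of 2.75 and 1.20, whereas Socs1 and Sigirr, inhibitors of cytokine and receptor signalling, had -1.71 and -1.05. The 3 listed partners of RP105 signalling comprised 2 that were higher in B cells, the kinases Lyn (7.29) and Btk (6.19), and the exchange factor Vav1, which differed by 0.11 (adjusted p 0.10 in limma) and passed with median-ratio scaling (0.19, adjusted p 0.0039) and after rescaling to the same total (0.49, adjusted p 0.029). None of the 51 pathway genes passed the threshold for sex in either cell type or for the difference between sex effects. Unadjusted p was under 0.05 for 1 of them in B cells, the X-linked kinase gene Irak1, for 2 in T cells, Irak3 and Ly96, and for 1 in the difference, again Irak1, beside the shares of 2.98%, 2.55% and 2.36% over all tested genes.

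The genes whose log2 levels followed Cd180 most closely over the 12 libraries were Ago4, Igkv6-32 and B3gnt8, with Pearson r of 0.9997, 0.9995 and 0.9995. For Tlr9 they were Igkv3-10, Igkv6-25 and Pxk, with r of 0.9997, 0.9996 and 0.9996. All libraries share the split into B and T cells, and 1134 genes for Cd180 and 1153 for Tlr9 had an r above 0.98, so these names describe the top of a long list.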

How the data were processed

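RNA was depleted of ribosomal RNA and made into strand-specific libraries with ERCC spike-ins, which were not analysed here. The submitters' processing notes name Trim Galore, FastQC, STAR and build mm10. The quantification tool, the way of adjustment and the level of the deposited interval are not given in the sources used here. The authors deposited a signal for each gene and library, the adjusted TPM, with its lower and upper bound. Totals over genes ran from 561020 to 1453940, so the values do not share 1 total. The deposited values are not read counts, the depth of each library is unknown, and precision was read from the bounds.

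Some label fields name genomic DNA, and the values were treated as RNA. Differences were computed on log2(adjusted TPM + 1) over 12520 genes with at least 1 in at least 3 libraries. limma (3.58.1, R 4.3.3) fitted 4 groups over all 12 libraries with a variance trend. It compared B with T cells over both sexes, females with males in each cell type, and the sex differences with each other, with Benjamini-Hochberg adjustment and a threshold of 0.05. The script was tested on simulated data with 200 changed genes. The labels number B cell libraries 1 to 3 and T cell libraries 4 to 6 in each sex. The names of the deposited values carry a further number that is shared within each sex and differs between the sexes of each cell type. The titles state no pairing between the sexes. Deviations of same-numbered T cell libraries correlated at 0.72, 0.55 and 0.52, so these numbers were taken to pair them. This pairing is an inference from these same values. The deviations of same-numbered B cell libraries gave -0.17, -0.04 and -0.34. The main fit used no pairing, and the replicate block used the numbers in both cell types. Coordinates came from GENCODE M21 and upstream sequences from RefSeq. Transcripts were aligned with blastn 2.17.0+, and Python 3.11.15 with numpy 2.4.6, pandas 2.3.3 and matplotlib 3.10.9 served the rest.

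The 10 genes, the pathway and marker lists and the motifs were chosen with earlier results of these data known. Named were the 10 genes, all other receptors, co-receptors, adaptors and interferon regulatory factors, the leading 2 genes per direction of each further list, and the 3 genes closest in pattern to Cd180 and to Tlr9. Btk, Vav1, Ap3b1, Irak1, Lgmn, Ctss, Cyld, Dusp1, Tab1, Tab2, Tab3 and the markers named singly were added after their values were seen. Alternatives were a pseudocount of 0.1, no filter, median-ratio scaling, rescaling to a total of 1000000, a replicate block, a fit within 1 cell type and each library left out.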

Additional observations from a re-analysis of the deposited data

How the results depend on the processing

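For B against T cells, each of the 10 genes kept its direction and stayed past the threshold in all 160 recomputed values. The adjusted p was at most 0.0074 in limma. These values include the unfiltered fit described below and the fit rescaled to the same total. Calls of the latter are not on the same footing as those of the main fit. For sex, none of the 10 passed in any of 180 recomputed values in B cells, 180 in T cells and 170 of the difference. Their sign changed in 18, 22 and 32 of these, all short of the threshold, and the largest absolute log2 value was 0.27, 0.63 and 0.74. Counts over all genes moved more. Without the filter, genes past the threshold went from 9134 to 24591 for B against T cells, from 18 to 10985 for sex in B cells, from 13 to 10607 in T cells and from 0 to 11201 for the difference, and the cause was not tested. Rescaling to a total of 1000000 gave 44, 26 and 20 for the 3 sex comparisons, and a pseudocount of 0.1 gave 24 in T cells and 1 for the difference. A fit of B cells alone, on fewer samples, gave 5. With each library left out the counts ran from 8686 to 9164, 11 to 18, 7 to 14 and 0 to 1. The lower ends came without female B cell 3 (11) and without female T cells 4 (8), 5 (7) and 6 (7), and the 1 gene of the difference appeared without female T cell 6. The pathway count of 39 ran from 36 to 40 in these fits, and was 45 without the filter and 43 with median-ratio scaling. With the replicate block, 14 genes passed for sex in B cells, 10 in T cells and 0 for the difference, and the block changed no call of the 10 genes. The pairing of T cell libraries by number was inferred from these same values and is not stated in the titles. Depth is unknown, so T cell values far below 1 are limited by their wide bounds.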
